A study of Mus musculus with 192 samples.

Results

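Pax2, Foxd1, Foxd2 and Twist1 are genes for transcription factors of the embryo that were read at higher levels in the hippocampus of zQ175 mice than of wild-type (WT) mice. The 4 genes were picked by symbol out of 41128 genes in the deposited table because of that difference, so their levels by genotype and by age are described here without a test. The treatment, dosing and sex comparisons within a genotype were not used in the choice and are tested, although the untreated zQ175 libraries entered both. The samples are 192 mice with 1 polyA-selected RNA-seq library of the hippocampus each, 96 zQ175 and 96 WT. zQ175 mice model Huntington's disease: the Htt gene of the mouse carries a long CAG repeat by knock-in, so the mutant protein is made under that gene's own promoter. Within each genotype the mice received HTT-10150, an siRNA against full-length HTT mRNA, or HTT-634.486, the pair of siRNAs HTT-634 and HTT-486 against the short HTT1a transcript, or a non-targeting control siRNA (NTC), or were left untreated. There were 3 regimens. Dosing for 2[4]6 came at 2 months of age and collection at 6 months. Mice of 6[4]10 were dosed at 6 months, those of 2.6[8]10 both at 2 and at 6 months, and both were collected at the age of 10 months. This gives 24 groups of 8 mice, 4 males and 4 females each. The labels do not say whether the zQ175 mice carried 1 or 2 copies of the allele, how the siRNAs were given, or whether any mice were littermates, so p-values measure the spread between these libraries.

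PAX2 is a paired-box factor that patterns the midbrain-hindbrain boundary, the kidney, the eye and the inner ear, and it marks inhibitory interneuron precursors of the cerebellum and spinal cord. FOXD1 and FOXD2 are forkhead factors. FOXD1 is known from the stroma of the developing kidney and from the ventral retina and hypothalamus, and FOXD2 from the kidney and facial mesenchyme. TWIST1 is a basic helix-loop-helix factor of cranial mesenchyme that pairs with E proteins and is opposed by Id proteins. In the adult brain FOXD1 and TWIST1 are also known from meningeal fibroblasts and mural cells of vessels. In neurons outside these lineages such genes are commonly held silent by Polycomb complexes, which mark histone H3 lysine methylation (PRC2) and ubiquitylate histone H2A (PRC1) at promoters rich in CG pairs.

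The 4 genes lie on different chromosomes (GRCm38, GENCODE vM21). Pax2 (ENSMUSG00000004231) spans chromosome 19 from 44756045 to 44837871 on the plus strand, Foxd1 (ENSMUSG00000078302) chromosome 13 from 98354242 to 98359305 on the plus strand, Foxd2 (ENSMUSG00000055210) chromosome 4 from 114906282 to 114908873 on the minus strand, and Twist1 (ENSMUSG00000035799) chromosome 12 from 33957671 to 33959829 on the plus strand. Their promoters are shown because CG-rich promoters are a feature that such developmental genes share, and the rule that chose the genes did not use sequence. Each run is the RefSeq promoter on build GRCm38.p6, from 250 bases before to 50 bases after the start, 5′ to 3′ on the gene's strand, with every CG pair in capitals. It covers chr19:44755502-44755801 on the plus strand for Pax2, chr13:98353995-98354294 on the plus strand for Foxd1, chr4:114908849-114909148 on the minus strand for Foxd2 and chr12:33957421-33957720 on the plus strand for Twist1.
Pax2: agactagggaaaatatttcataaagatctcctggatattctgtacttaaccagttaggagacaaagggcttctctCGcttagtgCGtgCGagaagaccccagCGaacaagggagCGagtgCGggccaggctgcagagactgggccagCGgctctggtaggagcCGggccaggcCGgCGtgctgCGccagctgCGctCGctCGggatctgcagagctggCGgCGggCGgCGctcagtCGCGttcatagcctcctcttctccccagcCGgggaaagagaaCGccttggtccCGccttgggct
Foxd1: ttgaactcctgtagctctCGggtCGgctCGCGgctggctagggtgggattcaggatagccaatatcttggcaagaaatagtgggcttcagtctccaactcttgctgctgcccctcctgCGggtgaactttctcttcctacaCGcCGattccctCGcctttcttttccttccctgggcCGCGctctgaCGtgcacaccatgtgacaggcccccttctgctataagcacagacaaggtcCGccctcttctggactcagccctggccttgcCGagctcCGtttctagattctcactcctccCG
Foxd2: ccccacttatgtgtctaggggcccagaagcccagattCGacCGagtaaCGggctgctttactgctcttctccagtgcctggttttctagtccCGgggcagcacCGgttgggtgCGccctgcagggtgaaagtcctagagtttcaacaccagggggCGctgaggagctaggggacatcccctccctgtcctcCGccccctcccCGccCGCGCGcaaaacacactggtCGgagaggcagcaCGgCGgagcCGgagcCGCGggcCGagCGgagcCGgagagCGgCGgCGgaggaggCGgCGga
Twist1: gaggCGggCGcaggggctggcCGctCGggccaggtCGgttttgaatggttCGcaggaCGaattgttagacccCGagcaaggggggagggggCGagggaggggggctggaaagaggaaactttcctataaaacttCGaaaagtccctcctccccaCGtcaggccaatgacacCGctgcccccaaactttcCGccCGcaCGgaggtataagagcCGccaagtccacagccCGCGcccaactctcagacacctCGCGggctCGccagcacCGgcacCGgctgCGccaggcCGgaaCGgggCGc
The Pax2 promoter holds 23 CG pairs, that of Foxd1 15, that of Foxd2 26 and that of Twist1 27, against a median of 7 in the 32851 RefSeq promoters of the same length. The share of promoters with fewer CG pairs is 78.5% for Pax2, 65.4% for Foxd1, 83.1% for Foxd2 and 84.5% for Twist1. All 4 are thus in the CG-rich part of the range without standing outside it. The table gives 3 starts for Pax2, and the one shown is the nearest to the GENCODE start, 293 bases away. On either strand, TATAAA is found once in the Twist1 promoter and not in the other promoters shown, and 13.6% of all promoters hold it. The E-box letters CANNTG occur once in the Pax2 and once in the Foxd1 promoter, and in 72.3% of all promoters. The forkhead letters GTAAACA are in none of these windows and in 3.65% of all promoters.

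Levels are CPM, counts over library size after scaling by TMM, which evens out library composition. Library totals ran from 8441632 to 55955529 reads in 2[4]6 (median 27722736), from 13376471 to 41269383 in 6[4]10 (median 24458656) and from 12999992 to 65748954 in 2.6[8]10 (median 16523749). All 4 genes passed the filter on low counts in every fit, in which a gene needs enough reads in as many libraries as a group holds. The median library held 96.5 reads of Pax2 in zQ175 against 10 in WT, 51 of Foxd1 against 26, 54 of Foxd2 against 3, and 47.5 of Twist1 against 29. The WT levels of Pax2 and Foxd2 thus rest on few reads, and these genes pass the filter through the zQ175 libraries. Pax2 overlaps the antisense genes Gm20395 and 1700039E22Rik, and the sources used here do not say whether reads were counted by strand.

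A few libraries need naming before the results. A WT library goes against its tissue label: in the 2.6[8]10 WT HTT-10150 group, female 1 had 2909 CPM of Ppp1r1b and 286 CPM of Drd1, both genes of striatal projection neurons, against 38.1 to 168.8 and 1.85 to 13.7 CPM in the other 191 libraries. Its hippocampal genes were low, with 3.19 CPM of Neurod6 against 82.6 to 268 elsewhere, and 32.5 CPM of Prox1, a gene of dentate granule cells, against 102.1 to 197. Its Pax2 (0.142 CPM) and Twist1 (0.354 CPM) were the lowest of all 192 libraries. In the other 191 libraries the hippocampal genes Neurod6, Slc17a7 and Prox1 were all read at high levels. A pair of zQ175 libraries stands apart in the 4 genes. Female 4 of 2[4]6 HTT-10150 had 18.4 CPM of Pax2, 8.35 of Foxd1, 6.11 of Foxd2 and 6.51 of Twist1, against 0.399 to 0.722, 0.666 to 1.91, 0.0472 to 0.424 and 0.888 to 1.62 CPM in the other 7 mice of its group. Male 2 of 6[4]10 HTT-10150 had 24.1 CPM of Pax2, 17.4 of Foxd1, 15.9 of Foxd2 and 19.6 of Twist1, against 7.83 to 11.1, 1.67 to 4.06, 4.58 to 7.93 and 2.08 to 3.44 CPM in the other 7. Both also exceeded every other zQ175 mouse of their regimen in other developmental factors, female 4 in 24 of 62 detected and male 2 in 31 of 70. The share of all genes in which they did so was not counted, so nothing is read from these counts. In both, genes of mature hippocampal neurons were below the other 7 mice of the group: Dsp, a desmosome gene of dentate granule cells, was at 48.4 CPM in female 4 against 60.5 to 107.4, and at 6.17 CPM in male 2 against 39.9 to 56.1. The summed cerebellum and hindbrain markers were above every other zQ175 mouse of the regimen in both. They were at 10.3 CPM in female 4 against at most 9.45, and at 27.3 CPM in male 2 against at most 14.1. This sum holds En1, itself a developmental factor. En1 was at 1.32 CPM in female 4 against at most 0.107 in the other zQ175 mice of the regimen. In male 2 it was at 5.72 CPM against at most 0.706. The place of female 4 above every other zQ175 mouse in this sum thus rests on En1. No other summed marker list was above the other 7 mice in either library. Their Htt lay within their group, at 88.3 CPM in female 4 against 63.9 to 171.8 and at 68.1 CPM in male 2 against 54.1 to 158.1. Differences whose call or direction rests on one of these 3 libraries are given with and without it. In the sex-linked transcripts, the labels of 6[4]10 zQ175 HTT-10150 male 4 and female 4 and of 2.6[8]10 WT NTC female 2 do not match.

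**Figure D1:**
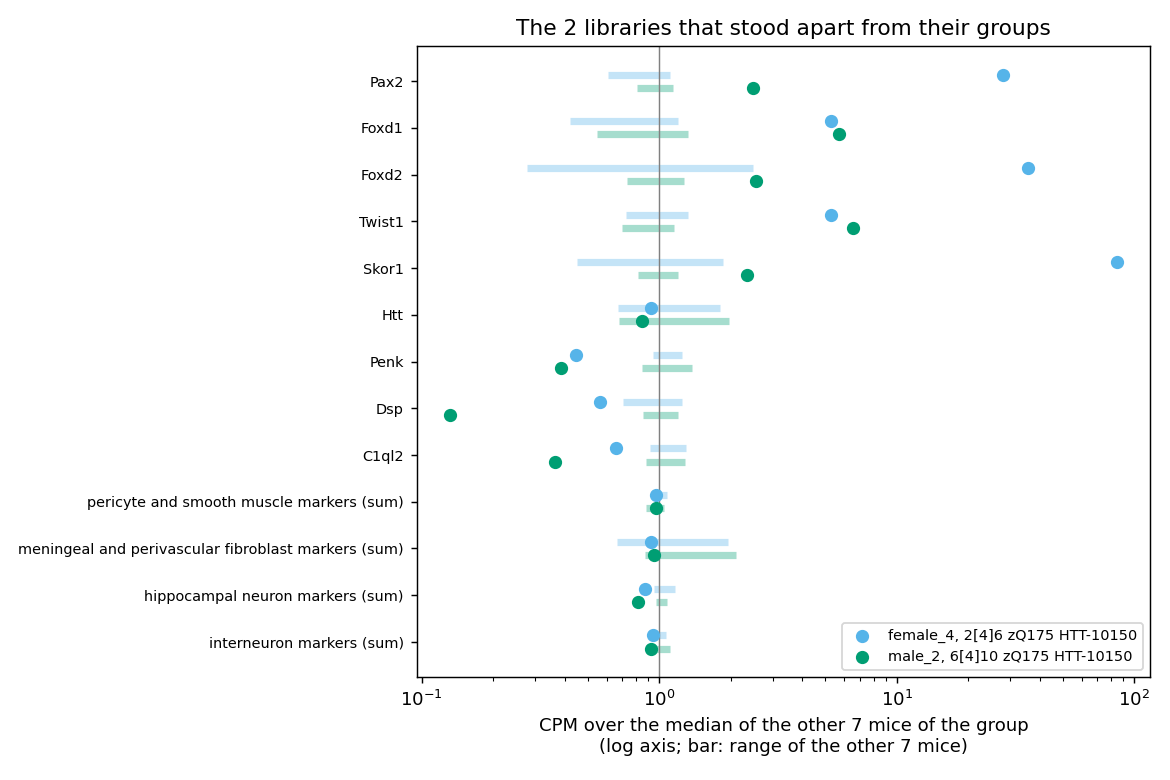
Ratio of the level in each of the 2 zQ175 HTT-10150 libraries that stand apart to the median of the other 7 mice of its group, on a log axis, for the 4 genes, Skor1, Htt, hippocampal genes and summed marker lists; bars give the range of the other 7 mice. The 4 genes lie to the right of 1 in both libraries, Dsp, C1ql2 and Penk to the left, and Htt, at 88.3 and 68.1 CPM, inside its group's range.

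At 10 months Pax2 and Foxd2 separated the genotypes almost without overlap, and Foxd1 and Twist1 did so in part. Over both regimens collected at 10 months, Pax2 ran from 1.44 to 24.1 CPM in 64 zQ175 mice, with a median of 7.05, and from 0.142 to 1.59 CPM in 64 WT mice, with a median of 0.554. In 63 of the 64 zQ175 mice Pax2 was above every WT mouse, and the ratio of medians was 12.7. Foxd2 ran from 0.899 to 15.9 CPM in zQ175 (median 4.81) and from 0 to 0.552 CPM in WT (median 0.157), so all 64 zQ175 mice were above every WT mouse. Its ratio of medians was 30.7, the highest of the 4 genes. Foxd1 ran from 1.18 to 17.4 CPM in zQ175 (median 2.65) and from 0.407 to 2.67 CPM in WT (median 1.20), with 31 of 64 zQ175 mice above every WT mouse. Twist1 ran from 1.17 to 19.6 CPM in zQ175 (median 2.45) and from 0.354 to 2.79 CPM in WT (median 1.42), with 19 of 64 above every WT mouse. Foxd1 and Twist1 thus had a clear level in WT, and their ratios of medians were 2.21 and 1.73, while Pax2 and Foxd2 were near the limit of detection in WT. In bulk tissue, more cells with a transcript and more transcript per cell cannot be told apart.

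At 6 months the genotypes were much closer. Pax2 ran from 0.263 to 18.4 CPM in 32 zQ175 mice (median 0.702) and from 0.170 to 0.720 CPM in 32 WT mice (median 0.367), with 16 zQ175 mice above every WT mouse. Foxd2 had medians of 0.294 CPM in zQ175 and 0.181 CPM in WT, and 1 zQ175 mouse, female 4 of the HTT-10150 group, was above every WT mouse. Foxd1 had medians of 1.52 CPM in zQ175 and 1.42 CPM in WT, and Twist1 medians of 1.41 CPM in zQ175 and 1.35 CPM in WT. At this age Pax2 was thus the one gene of the 4 whose zQ175 mice lay in good number outside the WT range.

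**Figure D2:**
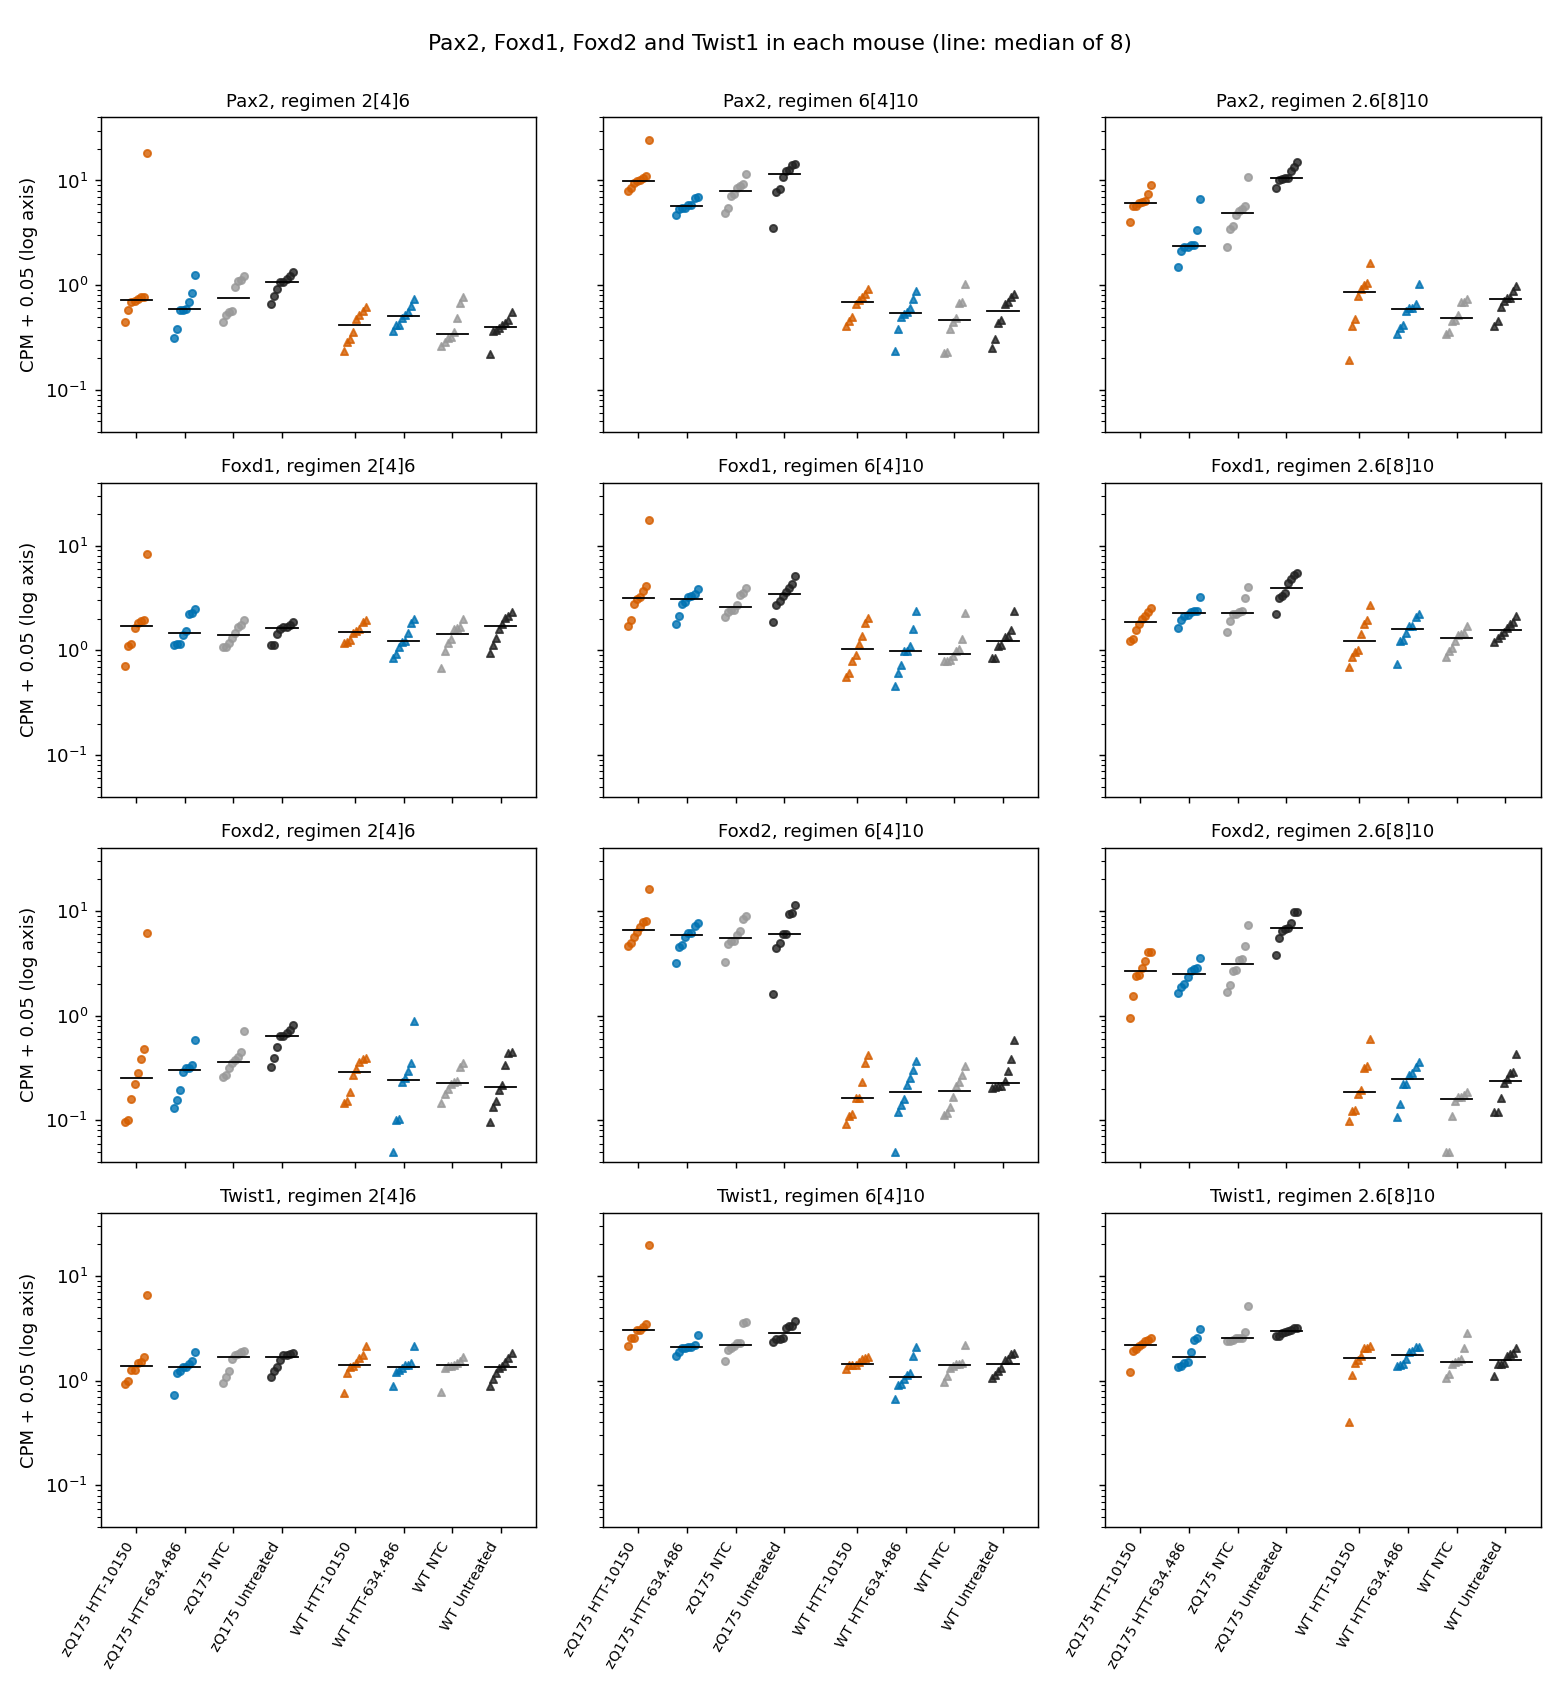
Level of each gene in every mouse (CPM + 0.05, log axis), one row per gene and one column per regimen. All zQ175 groups, as circles, are left of all WT groups, as triangles, and each genotype is split by treatment. The line is the median of 8 mice. Pax2 and Foxd2 lie apart from WT in both regimens collected at 10 months, whatever the treatment, while Foxd1 and Twist1 overlap WT in most groups.

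In untreated mice, which no siRNA had reached, Pax2 ran from 0.607 to 1.30 CPM in 2[4]6 zQ175 mice (median 1.03), against 0.170 to 0.502 CPM in WT (median 0.352). It ran in 6[4]10 from 3.43 to 14.2 CPM in untreated zQ175 mice (median 11.4) and from 0.203 to 0.782 CPM in WT (median 0.513), and in 2.6[8]10 from 8.39 to 14.9 CPM (median 10.5) and from 0.360 to 0.931 CPM (median 0.686). All 8 untreated zQ175 mice of each regimen were above every WT mouse. The mean was 0.982 ± 0.229 CPM in 2[4]6 zQ175 mice and 0.352 ± 0.0952 in WT (SD, n = 8 each), 2.79-fold higher, and the ratio of means was 20.6 in 6[4]10 and 17.4 in 2.6[8]10. In the fit over all genes 4.15% of genes were called between untreated zQ175 and WT mice in 2[4]6 (1.86% higher in zQ175 and 2.29% lower), 11.5% in 6[4]10 (5.35% higher and 6.19% lower) and 11.1% in 2.6[8]10 (4.66% higher and 6.45% lower), at an edgeR adjusted p under 0.05.

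Foxd2 in untreated mice ran from 0.271 to 0.761 CPM in 2[4]6 zQ175 mice (median 0.588) and from 0.0457 to 0.397 CPM in WT (median 0.157), with 6 of 8 zQ175 mice above every WT mouse. Its range in 6[4]10 was 1.55 to 11.2 CPM in zQ175 mice (median 5.97) against 0.153 to 0.539 CPM in WT (median 0.174), and in 2.6[8]10 from 3.74 to 9.67 CPM (median 6.77) against 0.0700 to 0.379 CPM (median 0.188). The groups did not overlap in either regimen at 10 months, and the ratios of means were 2.67 in 2[4]6, 27.2 in 6[4]10 and 37.7 in 2.6[8]10. Foxd1 in untreated mice averaged 1.49 ± 0.278 CPM in 2[4]6 zQ175 mice and 1.61 ± 0.501 in WT (SD, n = 8 each), with no zQ175 mouse above every WT mouse. In untreated 6[4]10 mice Foxd1 averaged 3.42 ± 0.998 CPM in zQ175 and 1.27 ± 0.502 in WT, and in 2.6[8]10 3.97 ± 1.13 CPM in zQ175 and 1.55 ± 0.308 in WT, with 7 and 8 of 8 zQ175 mice above every WT mouse. Twist1 averaged 1.496 ± 0.287 CPM in untreated 2[4]6 zQ175 mice and 1.30 ± 0.317 in WT. At 10 months Twist1 averaged, in 6[4]10, 2.88 ± 0.524 CPM in zQ175 and 1.40 ± 0.299 in WT, and in 2.6[8]10 2.89 ± 0.206 CPM in zQ175 and 1.56 ± 0.299 in WT, with no overlap in either. In untreated mice Pax2 was thus apart from WT, and Foxd2 largely so, at 6 months already, and Foxd1 and Twist1 were apart in the mice collected at 10 months and not in those collected at 6.

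Levels can be set between genes per kilobase of exon. In untreated zQ175 mice of 2.6[8]10, Foxd2 was at 2.70, Pax2 at 2.08, Twist1 at 1.78 and Foxd1 at 0.783 CPM per kilobase, while in WT the order was Twist1 at 0.959, Foxd1 at 0.307, Pax2 at 0.120 and Foxd2 at 0.0716 CPM per kilobase. The gene lowest in WT was thus the highest in zQ175 on this scale. Among the 12 zQ175 group means of a gene, ordered by size, few neighbours were apart by more than the larger of their SDs. This held for none of the 11 gaps of Pax2, Foxd1 and Twist1 and for 2 of 11 of Foxd2, one of which lies between NTC mice of 2.6[8]10 at 3.44 ± 1.82 CPM and HTT-634.486 mice of 6[4]10 at 5.62 ± 1.47 CPM. Foxd2 ran over these groups from 0.241 CPM in HTT-634.486 mice of 2[4]6 to 7.47 CPM in HTT-10150 mice of 6[4]10, and Pax2 from 0.607 CPM to 11.4 CPM in the same groups. Without male 2 the HTT-10150 mice of 6[4]10 averaged 6.26 CPM of Foxd2 and 9.56 CPM of Pax2, and the untreated mice of 2.6[8]10 were then the highest in both, at 6.997 and 11.3 CPM. Without female 4 the HTT-10150 mice of 2[4]6 were the lowest in Foxd2, at 0.196 CPM.

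The siRNA treatments were compared in 3 steps. NTC against untreated mice asks what the control siRNA and its delivery go with, each active siRNA against NTC what its target goes with, and HTT-10150 against HTT-634.486 how the active siRNAs differ. Htt itself checks the labels. HTT-10150 lowered Htt in zQ175 mice to 109 ± 37.4 CPM in 2[4]6, against 146.2 ± 18.5 in NTC, to 87.3 ± 34.8 in 6[4]10, against 141.6 ± 14.6, and to 75.2 ± 27.8 in 2.6[8]10, against 142.2 ± 13.3 (SD, n = 8 each; log2 -0.44, -0.69 and -0.92; edgeR adjusted p = 0.0244, 0.00542 and 6.16e-08). All 8 HTT-10150 zQ175 mice of 2.6[8]10 were below every NTC mouse in Htt, as were 7 of 8 in 6[4]10 and 5 of 8 in 2[4]6. Htt was not low in male 1 (153.7 CPM) and male 2 (171.8 CPM) of the 2[4]6 zQ175 group, in female 1 (158.1 CPM) of the 6[4]10 zQ175 group, or in male 1 (176.7 CPM) and male 2 (166.3 CPM) of the 6[4]10 WT group, so in these libraries it does not check the label. HTT-634.486 left Htt at log2 -0.01, -0.07 and -0.02 of NTC, which is no check of that siRNA pair because HTT1a is not a separate feature of the table.

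NTC mice of 2.6[8]10 had lower Pax2 and Foxd2 than untreated mice among zQ175 mice. Pax2 ran from 2.27 to 10.8 CPM in the NTC mice (median 4.85) and from 8.39 to 14.9 CPM in the untreated mice (median 10.5). In 7 of 8 NTC mice Pax2 was below every untreated mouse. The means were 5.09 ± 2.57 CPM in NTC and 11.3 ± 2.10 in untreated mice (SD, n = 8 each), so Pax2 fell by 1.17 ± 0.21 on the log2 scale (SE; edgeR adjusted p = 0.000426; two-sided exact permutation p = 0.000932). The eighth NTC mouse, female 4, had 10.8 CPM of Pax2, and it was also the highest of its group in Twist1, at 5.12 CPM against 2.34 to 2.88 in the other 7. Foxd2 ran from 1.64 to 7.32 CPM in NTC (median 3.02) and from 3.74 to 9.67 CPM in untreated mice (median 6.77), with 6 of 8 NTC mice below every untreated mouse. It fell by 1.05 ± 0.21 on the log2 scale (edgeR adjusted p = 0.00192; exact permutation p = 0.00357), and in a fit of all 192 libraries its edgeR adjusted p was 0.0508. These are 2 called genes of 4, where 1.02% of all genes tested were called in this comparison.

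Foxd1 ran from 1.45 to 4.02 CPM in the NTC mice of 2.6[8]10 (median 2.22) and from 2.20 to 5.41 CPM in the untreated mice (median 3.93). Its log2 difference of -0.70 ± 0.19 missed the threshold with an edgeR adjusted p of 0.0545 and passed it with limma-voom (adjusted p = 0.0091) and DESeq2 (adjusted p = 0.0205). Twist1 averaged 2.83 ± 0.940 CPM in NTC and 2.89 ± 0.206 CPM in untreated mice (log2 -0.02 ± 0.19; edgeR adjusted p = 0.987). The 4 genes thus did not fall by like amounts in these mice, although the differences between genes were not tested. Foxd1 also passed without the WT library high in striatum markers, which shares the fit (-0.69; edgeR adjusted p = 0.0315; 318 genes called against 1.02% of genes with it). Leaving out the mice with replicate number 3 gave edgeR adjusted p-values of 0.0559 for Pax2 and 0.0776 for Foxd2, with log2 differences of -1.12 and -0.93.

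Summed markers of cells around vessels, in the meninges and of choroid plexus had lower medians in these NTC mice than in the untreated mice. The sums were not tested. The summed fibroblast markers ran from 99.01 to 408 CPM in NTC mice (median 128) and from 150.6 to 506 CPM in untreated mice (median 233.8), and the defining collagens were read in every library. The pericyte and smooth muscle sum had medians of 199 CPM in NTC and 225.7 CPM in untreated mice, and the choroid plexus sum ran from 23.6 to 6399 CPM in NTC (median 44.9) and from 39.8 to 9599.8 CPM in untreated mice (median 138). Of the fibroblast markers 1 of 16 was called between these groups, where 1.02% of all genes were called. It was Foxc1, at 4.81 ± 0.527 CPM in NTC and 6.88 ± 1.20 CPM in untreated mice (SD, n = 8 each). The part of these cells in the Pax2 and Foxd2 differences was not tested.

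In the other regimens the control siRNA went with smaller differences that did not pass. Pax2 of 6[4]10 ran from 4.89 to 11.5 CPM in NTC (median 7.87) and from 3.43 to 14.2 CPM in untreated zQ175 mice (median 11.4), and the groups overlapped fully (log2 -0.39 ± 0.20; edgeR adjusted p = 1). The differences of Foxd2, Foxd1 and Twist1 were -0.11, -0.30 and -0.29. No gene at all was called there by edgeR (0%), with 612 genes at an unadjusted p under 0.05, none called by limma-voom and 2 by DESeq2. Pax2 in 2[4]6 differed by -0.33 ± 0.48 (edgeR adjusted p = 0.816) and Foxd2 by -0.72 ± 0.54 (edgeR adjusted p = 0.569; exact permutation p = 0.0278), where 0.0302% of genes were called. The difference between the 10-month regimens in this effect was -0.80 ± 0.41 for Pax2 (unadjusted p = 0.0546) and -0.96 ± 0.42 for Foxd2 (unadjusted p = 0.0236), each with an edgeR adjusted p of 1, where 0.0541% of genes were called. A passing value in 2.6[8]10 alone is therefore not shown to be particular to that regimen.

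HTT-634.486 went with lower Pax2 than NTC in zQ175 mice of 2.6[8]10. Pax2 ran from 1.44 to 6.67 CPM in HTT-634.486 mice (median 2.33) and from 2.27 to 10.8 CPM in NTC mice (median 4.85). The groups overlapped, with 3 of 8 HTT-634.486 mice below every NTC mouse. Pax2 fell by 0.83 ± 0.22 on the log2 scale (edgeR adjusted p = 0.0294; exact permutation p = 0.0438), 1 called gene of 4 where 2.04% of all genes were called. This call was lost when only the compared groups were fitted (edgeR adjusted p = 0.0881), in the fit of all 192 libraries (0.127) and without the mice of replicate number 2 (0.271) or 3 (0.236). Foxd2 ran from 1.58 to 3.47 CPM in HTT-634.486 and from 1.64 to 7.32 CPM in NTC mice (log2 -0.49 ± 0.22; edgeR adjusted p = 0.283), and Foxd1 differed by -0.10 ± 0.20. Twist1 ran from 1.29 to 3.07 CPM in HTT-634.486 (median 1.64) and from 2.34 to 5.12 CPM in NTC mice (median 2.52). In 5 of 8 HTT-634.486 mice Twist1 was below every NTC mouse, but the difference of -0.58 ± 0.20 did not pass (edgeR adjusted p = 0.109; exact permutation p = 0.0204), and passed without the WT library high in striatum markers (edgeR adjusted p = 0.0349).

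In the single-dose regimens no member was called between HTT-634.486 and NTC. Pax2 of 6[4]10 mice ran from 4.64 to 6.97 CPM with HTT-634.486 (median 5.62) and from 4.89 to 11.5 CPM in NTC mice (median 7.87), with a difference of -0.45 ± 0.21 (edgeR adjusted p = 0.26; exact permutation p = 0.0188), where 0.959% of genes were called. Pax2 in 2[4]6 mice differed by -0.32 ± 0.49 and Foxd2 by -0.41 ± 0.58, where 0.0302% of genes were called. Pax2 had a negative difference in all 3 regimens. Their sizes were not shown to differ between the 10-month regimens (difference -0.38 ± 0.43; edgeR adjusted p = 1), and no gene at all was called for this difference by edgeR (0%), with 618 genes at an unadjusted p under 0.05.

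Against untreated mice, HTT-634.486 mice of 2.6[8]10 did not overlap in Pax2 and Foxd2. Pax2 averaged 2.85 ± 1.63 CPM in HTT-634.486 and 11.3 ± 2.10 in untreated mice (SD, n = 8 each), a fall of 2.00 ± 0.22 on the log2 scale (edgeR adjusted p = 8.02e-09; exact permutation p = 0.000155, the smallest that 8 against 8 mice allow). Foxd2 averaged 2.40 ± 0.620 CPM in HTT-634.486 and 6.997 ± 1.99 in untreated mice (log2 -1.53 ± 0.21; edgeR adjusted p = 3.12e-06), and Foxd1 fell by 0.79 ± 0.19 (edgeR adjusted p = 0.00887). These 3 called genes of 4 stand beside 4.9% of all genes. The Foxd1 call was lost in the fit of all 192 libraries (edgeR adjusted p = 0.053) and without the mice of replicate number 2 (0.0868) or 3. Twist1 differed by -0.60 ± 0.19 (edgeR adjusted p = 0.0567), and passed without the WT library high in striatum markers (0.0193). Pax2 was also called in 6[4]10, at -0.84 ± 0.21 (edgeR adjusted p = 0.0175; 0.0701 in the fit of all 192 libraries, and 0.113 and 0.194 without the mice of replicate number 1 and 3), where 3.9% of genes were called, and no member was called in 2[4]6, where 6.58% of genes were called. Even so, in HTT-634.486 mice of 2.6[8]10 every zQ175 mouse stayed above every WT mouse in Pax2 and Foxd2, with ratios of zQ175 to WT means of 5.40 and 12.6, while in Twist1 the ratio was 1.14 and 3 of 8 zQ175 mice were above every WT mouse.

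HTT-10150 gave no called difference from NTC in the 10-month regimens. In 2.6[8]10 Pax2 ran from 4.00 to 9.08 CPM in HTT-10150 (median 6.10) and from 2.27 to 10.8 CPM in NTC mice (median 4.85), a difference of 0.32 ± 0.21 (edgeR adjusted p = 0.621), where 0.871% of genes were called. Foxd1 differed by -0.40 ± 0.20, Foxd2 by -0.36 ± 0.22 and Twist1 by -0.46 ± 0.19 (edgeR adjusted p = 0.426, 0.567 and 0.311). For Twist1, 6 of 8 HTT-10150 mice were below every NTC mouse (exact permutation p = 0.00342). Among 6[4]10 mice, where 0.0672% of genes were called, Pax2 differed by 0.54 ± 0.20 (edgeR adjusted p = 0.542; exact permutation p = 0.0424) and Twist1 by 1.03 ± 0.26 (edgeR adjusted p = 0.141; 0.00999 in the fit of all 192 libraries and 0.0142 without the mice of replicate number 1), with male 2 in the group. Without male 2 the HTT-10150 mean of Pax2 was 9.56 ± 1.14 CPM (SD, n = 7; exact permutation p against NTC = 0.0864) and that of Twist1 2.81 ± 0.473 CPM (exact permutation p = 0.202). In 2[4]6 Pax2 was called higher with HTT-10150 (log2 1.70 ± 0.46; edgeR adjusted p = 0.0282), 1 of 4 where 3.57% of genes were called, but this rests on female 4: the exact permutation p was 0.858, and without that library the difference was -0.30 (edgeR adjusted p = 0.52).

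**Figure D3:**
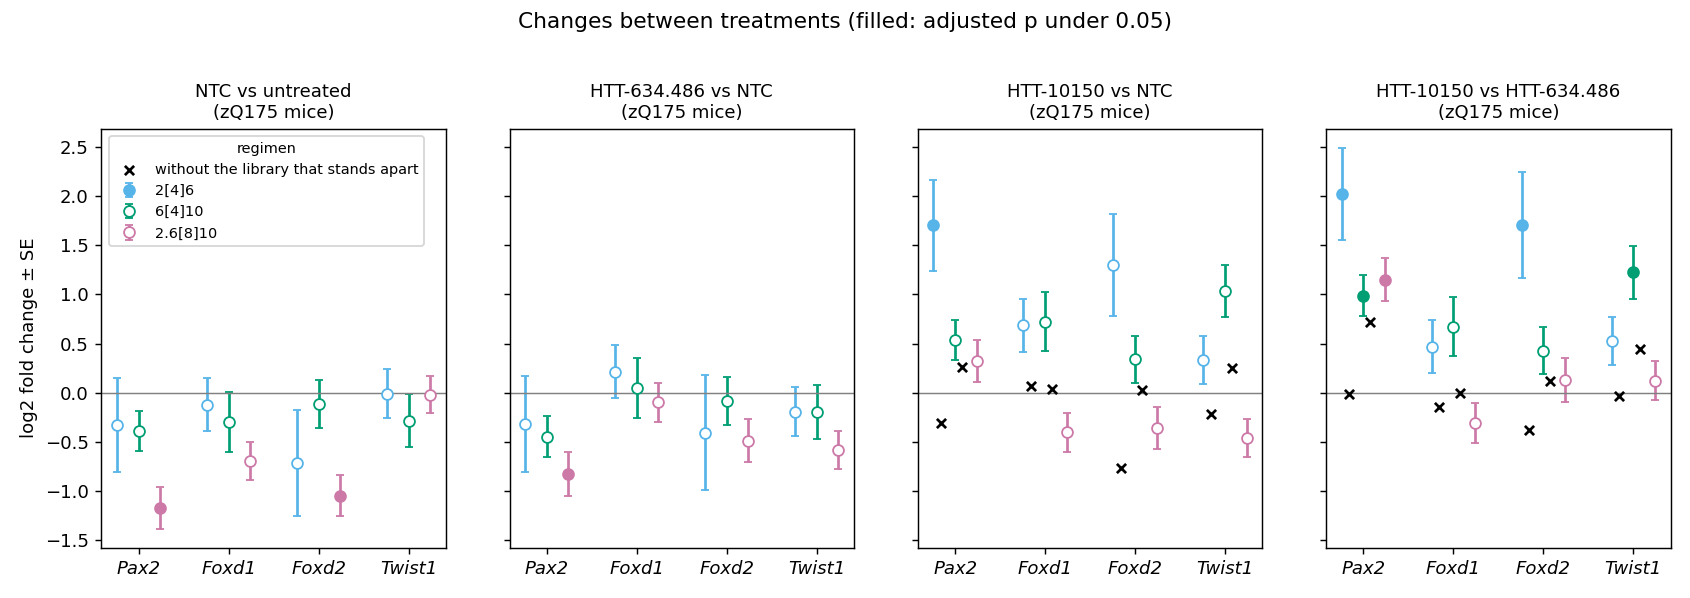
Difference between treatments in zQ175 mice on the log2 scale ± SE for each gene and regimen, one panel per comparison; filled points have an edgeR adjusted p under 0.05, and crosses give the value without the library that stands apart. Pax2 and Foxd2 are filled for NTC against untreated mice only in 2.6[8]10 (-1.17 and -1.05), and the crosses put Pax2 with HTT-10150 in 2[4]6 at -0.30 against NTC and -0.01 against HTT-634.486.

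The active siRNAs differed from each other in Pax2 in both 10-month regimens, with calls that were lost in some alternatives. In 2.6[8]10 Pax2 averaged 6.28 ± 1.48 CPM with HTT-10150 and 2.85 ± 1.63 CPM with HTT-634.486 (SD, n = 8 each). The difference was 1.15 ± 0.22 on the log2 scale (edgeR adjusted p = 0.00298; exact permutation p = 0.0014), 1 called gene of 4 where 0.208% of all genes were called. Its edgeR adjusted p was 0.0919 in the fit of all 192 libraries, and 0.189 and 0.156 without the mice of replicate number 2 and 3. In 6[4]10 Pax2 ran from 7.83 to 24.1 CPM with HTT-10150 (median 9.87) and from 4.64 to 6.97 CPM with HTT-634.486 (median 5.62), with no overlap. The difference was 0.99 ± 0.21 (edgeR adjusted p = 0.0176; exact permutation p = 0.000155), and 0.116% of genes were called. This call was lost in 7 of 15 alternatives, among them the fit of all 192 libraries and that of only the compared groups. Without male 2 the difference was 0.72 (edgeR adjusted p = 0.256), and the 7 remaining HTT-10150 mice were still all above the HTT-634.486 mice. Twist1 in 6[4]10 differed by 1.22 (edgeR adjusted p = 0.026), and by 0.44 without male 2 (edgeR adjusted p = 0.616). In 2[4]6, where 11.7% of genes were called, Pax2 differed by 2.02 (edgeR adjusted p = 0.00328) and Foxd2 by 1.71 (edgeR adjusted p = 0.0294), and without female 4 by -0.01 and -0.37.

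Against untreated mice of 2.6[8]10, HTT-10150 mice were lower in 3 of the 4 genes, where 1.5% of all genes were called. Foxd2 averaged 2.65 ± 1.11 CPM in HTT-10150 and 6.997 ± 1.99 in untreated mice (log2 -1.40 ± 0.21; edgeR adjusted p = 3.95e-05). Foxd1 averaged 1.80 ± 0.477 CPM in HTT-10150 and 3.97 ± 1.13 in untreated mice (log2 -1.10 ± 0.20; edgeR adjusted p = 0.000697), and Pax2 fell by 0.85 ± 0.21 (edgeR adjusted p = 0.0237; 0.0991 in the fit of all 192 libraries, and 0.0958 to 0.156 without the mice of replicate number 1, 2 or 3). Twist1 averaged 2.06 ± 0.420 CPM in HTT-10150 and 2.89 ± 0.206 in untreated mice, with no overlap (exact permutation p = 0.000155), although the fit over all genes did not call it (log2 -0.48 ± 0.19; edgeR adjusted p = 0.205). In these HTT-10150 mice Foxd1 did not lie apart from WT: the zQ175 to WT ratio of means was 1.31 and no zQ175 mouse was above every WT mouse. No member was called against untreated mice in 2[4]6 or 6[4]10, where 0.00603% and 0.0855% of genes were called. All comparisons with the untreated mice share those 8 libraries, and NTC mice too were lower than untreated mice in Pax2 and Foxd2.

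In WT mice none of 48 tests of the 4 genes between treatments passed, the lowest edgeR adjusted p was 0.239, and 4 had an unadjusted p under 0.05. Their log2 differences ran from -1.04 to 1.10. Foxd2 in WT mice of 2.6[8]10 averaged 0.082 CPM with NTC and 0.185 CPM untreated (log2 -1.04 ± 0.51; edgeR adjusted p = 0.424; exact permutation p = 0.0191), on a median of 2 and 3 reads per library, which stands beside the fall of 1.05 in zQ175 mice. Over all genes and these 12 comparisons, 0.504% of tests passed. The differences between genotypes in the treatment effects, 36 tests of an interaction term, gave no call either, where 0.0041% of all such tests passed. The lowest unadjusted p among them was 0.00724, for Foxd2 with HTT-634.486 in 2.6[8]10 (-1.53 ± 0.55; edgeR adjusted p = 0.877). Since Pax2 and Foxd2 passed the filter through the zQ175 libraries, nothing is read from these counts of WT and interaction tests for either gene.

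Both 10-month regimens had zQ175 mice of 1 age, so their levels can be set side by side, though dosing and any difference in handling between regimens cannot be told apart. Untreated zQ175 mice had like levels: Pax2 averaged 11.3 ± 2.10 CPM in 2.6[8]10 and 10.3 ± 3.69 in 6[4]10 (log2 0.14 ± 0.29), Foxd2 6.997 ± 1.99 and 6.59 ± 3.20 (0.12 ± 0.29), and Twist1 2.89 ± 0.206 and 2.88 ± 0.524 (SD, n = 8 each). None of the 4 genes was called, where 2.72% of all genes were called. In HTT-634.486 mice Pax2 was lower in 2.6[8]10, at 2.85 ± 1.63 CPM against 5.75 ± 0.761 CPM in 6[4]10 (log2 -1.04 ± 0.31; edgeR adjusted p = 0.0435), and Foxd2 too, at 2.40 ± 0.620 against 5.62 ± 1.47 CPM (-1.24 ± 0.31; 0.00982). These 2 called genes of 4 stand beside 2.73% of all genes. In HTT-10150 mice Foxd2 was lower in 2.6[8]10, at 2.65 ± 1.11 against 7.47 ± 3.63 CPM (-1.56 ± 0.31; edgeR adjusted p = 0.000271). Foxd1 (-1.41) and Twist1 (-1.26) were called in HTT-10150 mice too, 3 of 4 beside 3.05% of all genes, but without the libraries that stand apart they were at -0.65 (edgeR adjusted p = 0.119) and -0.44 (0.208). In NTC mice Pax2 (-0.66 ± 0.30; edgeR adjusted p = 0.214) and Foxd2 (-0.84 ± 0.30; 0.0939) were not called, where 4.2% of genes were called, and both passed without the HTT-10150 libraries that stand apart, which share the fit (edgeR adjusted p = 0.0411 and 0.0178). The Pax2 call in HTT-634.486 mice was lost without the mice of replicate number 1, 2 or 3 (edgeR adjusted p from 0.163 to 0.346), that of Foxd2 in HTT-634.486 mice without number 2 (0.0709) or 3 (0.155), and that of Foxd2 in HTT-10150 mice without number 2 (0.0832).

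The effect of HTT-10150 relative to NTC on Twist1 differed between 2.6[8]10 and 6[4]10 by -1.52 ± 0.34 (edgeR adjusted p = 0.0408), where 0.0301% of genes were called, and its effect relative to untreated mice on Foxd1 by -1.61 ± 0.38 (edgeR adjusted p = 0.0399), where 0.0902% were called. Both rest on male 2 of 6[4]10: without the libraries that stand apart the differences were -0.71 and -0.86, each with an edgeR adjusted p of 1. No other difference of a treatment effect between these regimens was called among the 4 genes, where 0.018% of genes were called for HTT-10150 against HTT-634.486 and 0.012% for HTT-634.486 against untreated mice.

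Foxd2 differed between the sexes in zQ175 mice of 2.6[8]10. It averaged 2.998 ± 1.76 CPM in males and 4.74 ± 2.59 CPM in females (SD, n = 16 each), lower in males within each of the 4 treatments. The means were 2.11 CPM in males and 3.19 in females with HTT-10150, 1.90 and 2.90 with HTT-634.486, 2.38 and 4.49 with NTC, and 5.60 and 8.39 in untreated mice. With the treatments as groups, the difference was -0.68 ± 0.15 on the log2 scale, males over females (edgeR adjusted p = 0.0126), where 0.7% of all genes were called. Pax2 averaged 5.43 ± 3.29 CPM in males and 7.31 ± 3.85 in females, also lower in males in 4 of 4 treatments, and did not pass (-0.50 ± 0.15; edgeR adjusted p = 0.104, or 0.0495 without the WT library high in striatum markers). Foxd1 differed by -0.37 ± 0.14 (edgeR adjusted p = 0.237) and Twist1 by -0.04 ± 0.14. For the sexes of 6[4]10, where 0.183% of genes were called, Foxd2 averaged 5.60 ± 3.13 CPM in males and 7.21 ± 1.86 in females (-0.37 ± 0.16; edgeR adjusted p = 0.364). Male 2 of HTT-10150, at 15.9 CPM, is among these males. The sex labels of male 4 and female 4 of that group do not match their sex-linked transcripts. Over 6 alternatives the Foxd2 difference ran from -0.54 to -0.37 and was not called. Among zQ175 mice of 2[4]6, where 5.95% of genes were called, Pax2 (-0.98 ± 0.34; edgeR adjusted p = 0.0726) and Foxd2 (-1.10 ± 0.39; 0.0798) did not pass, and female 4 of HTT-10150 is among the females. Without that library the differences were -0.24 and -0.38 (edgeR adjusted p = 0.423 and 0.416).

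**Figure D4:**
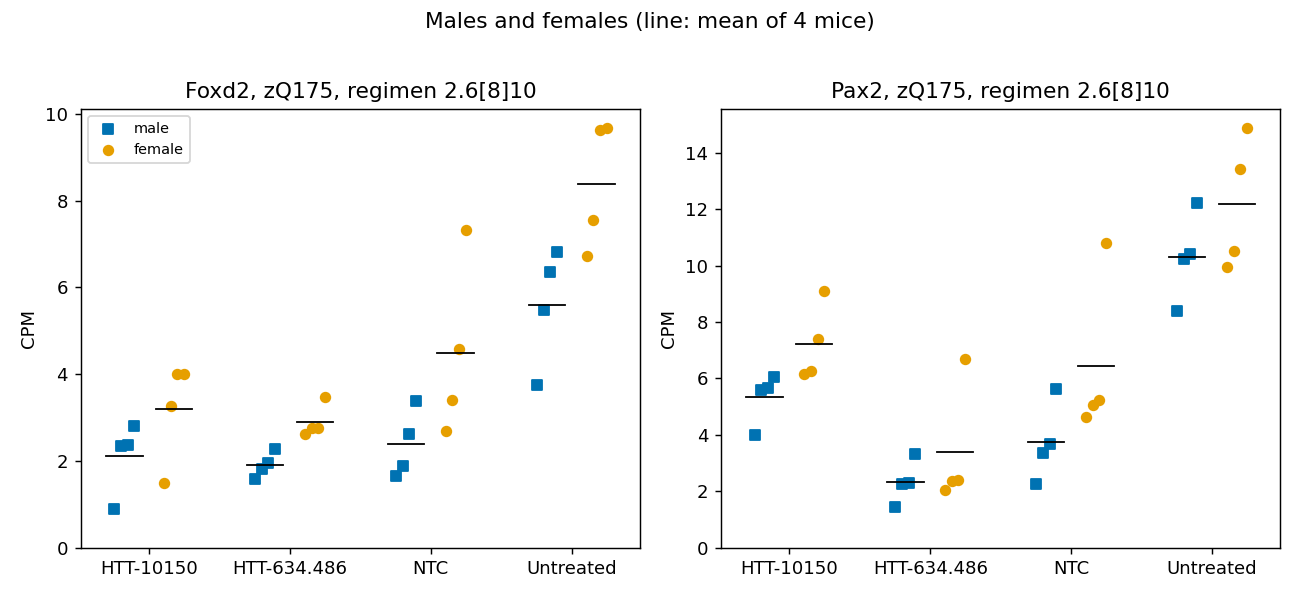
Level of Foxd2 and of Pax2 (CPM) in zQ175 mice of 2.6[8]10 by treatment, males left of females; each point is 1 mouse and each line the mean of 4. The line for males is below that for females in every treatment for both genes, and Foxd2 averages 2.998 CPM in males and 4.74 CPM in females.

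Within groups, zQ175 mice high in Pax2 were also high in Foxd2. Over the 64 zQ175 mice collected at 10 months, after the mean of each group and sex was taken off the log2 CPM, Pax2 and Foxd2 correlated with Pearson's r = 0.77 and Spearman's rho = 0.80 (permutation p = 1e-05 for each, the smallest that 100000 permutations can give; 6e-05 adjusted over 6 relations). Without the 2 mice farthest out in Pax2, r was again 0.77, and without male 2 of 6[4]10 HTT-10150 it was 0.73. Within 2.6[8]10 r was 0.61, and within 6[4]10 it was 0.92. The other 5 relations had r from 0.40 to 0.67 and rho from 0.23 to 0.37, and without male 2 r was 0.17 to 0.38, so those rest in good part on that library. Within 2.6[8]10, which does not hold it, they had r from 0.03 (Foxd1 with Foxd2) to 0.57 (Pax2 with Twist1), and rho of Foxd2 with Twist1 did not pass over all 64 mice (adjusted permutation p = 0.0704). All 4 values of a mouse come from 1 library and share its depth and composition. Among HTT-10150 zQ175 mice, over the 8 mice of each regimen, none of 12 relations of a member with Htt passed (Pearson's r from -0.31 to 0.25, Spearman's rho from -0.67 to 0.36; lowest adjusted exact permutation p = 0.792 for r and 0.92 for rho). Without the library that stands apart r of Twist1 with Htt was -0.65 in 2[4]6 and -0.65 in 6[4]10, over 7 mice each and with no test, against -0.31 and -0.27 with it, so 8 mice do not settle whether such a relation exists.

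**Figure D5:**
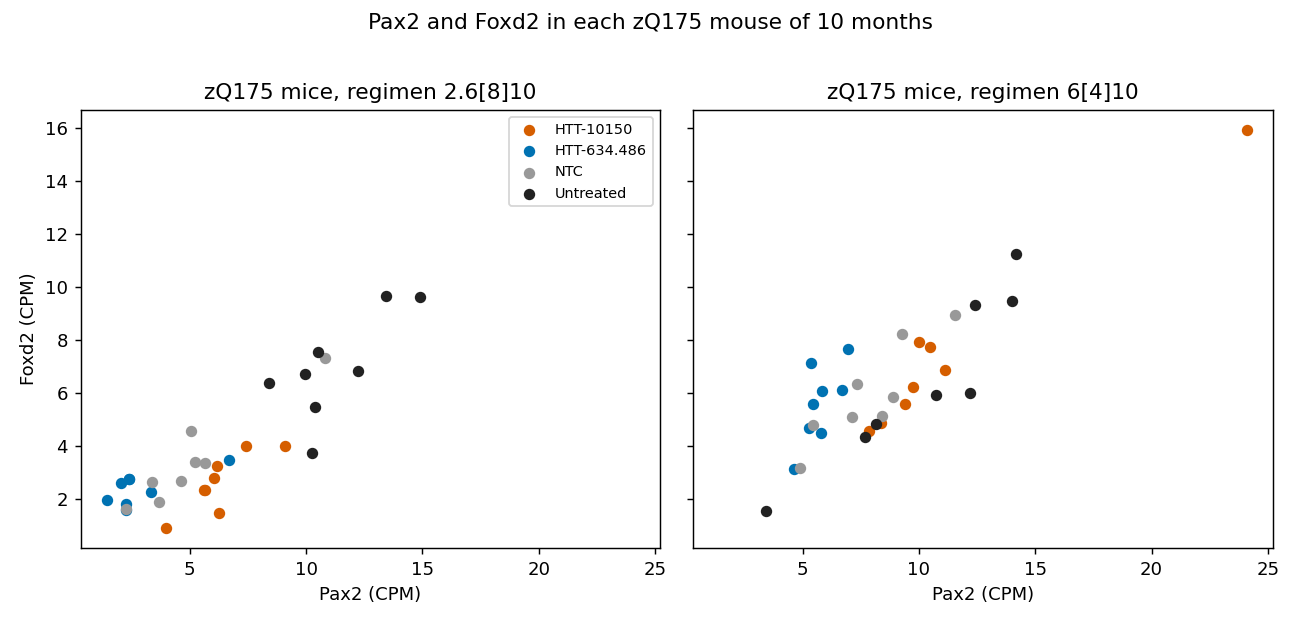
Foxd2 against Pax2 (CPM) in each zQ175 mouse, 2.6[8]10 on the left and 6[4]10 on the right, by treatment. Mice high in Pax2 are high in Foxd2 in both panels (r = 0.61 and 0.92 after the means of each group and sex were taken off), and male 2 of 6[4]10 lies at 24.1 and 15.9 CPM.

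Across the 24 group means of log2 CPM the 4 genes correlated with each other at r from 0.906 to 0.98, as a description, since the genotype difference that chose them fills these means. Among 15998 other genes of at least 0.5 CPM in some group, those whose group means were most like Pax2 were Nkx1-1 (r = 0.987), Skor1 (0.985) and Hoxc6 (0.977), all genes of homeodomain factors or, for Skor1, of a SKI-family corepressor. Those most like Foxd2 were Hoxc6 (0.991), Nkx1-1 (0.990) and Hoxc4 (0.987). Those most like Foxd1 were Tal1 (0.943), Igf2os (0.942) and En1 (0.937), and those most like Twist1 were Tal1 (0.942), Skor1 (0.932) and Hoxa2 (0.930). Of these 8 genes 5 encode homeodomain factors. Skor1 averaged 13.2 CPM in untreated zQ175 mice of 6[4]10 and 13.9 in those of 2.6[8]10, against 0.152 and 0.219 CPM in WT. Tal1, a basic helix-loop-helix factor of blood and of midbrain and spinal inhibitory neurons, averaged 2.75 and 2.87 CPM in zQ175 against 1.24 and 1.46 CPM in WT, with a WT level like those of Foxd1 and Twist1.

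Tal1 is also a neighbour of Foxd2. Genes within 250 kb of each member were counted for untreated zQ175 against WT mice, as a description beside the member. Over all genes 1.86% were called higher in 2[4]6, 5.35% in 6[4]10 and 4.66% in 2.6[8]10. Of the 15 neighbours of Foxd2, 3 of 6 tested were called higher in 6[4]10 and 2 of 5 in 2.6[8]10. They were Foxd2os, 384 bases away, at 0.444 CPM in zQ175 and 0.0838 CPM in WT in 6[4]10 (log2 2.19 ± 0.52; edgeR adjusted p = 0.00208), Tal1, 147553 bases away (1.11 ± 0.30 and 0.97 ± 0.17; edgeR adjusted p = 0.00776 and 4.87e-05), and Cyp4x1 (0.25 and 0.31). Foxd2os and Foxd2 lie so close that, with strand use not stated, reads of the one may be counted to the other. Of the 18 neighbours of Pax2, 12 were tested, with 1 called higher in 2[4]6, 4 in 6[4]10 and 2 in 2.6[8]10, and none lower. Gm26644, a long noncoding gene, was higher in 2[4]6 (1.31; edgeR adjusted p = 0.000556) and 6[4]10 (1.09; edgeR adjusted p = 8.91e-05), and Kazald1 by 0.61 and 0.58 at 10 months. Of 11 neighbours of Foxd1, 5 were tested and 1 was called, Arhgef28 in 2[4]6 (0.20), and the 1 tested of 2 neighbours of Twist1 was not called.

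The closest relatives of the 4 genes are described by their levels in the genotypes. Among the Pax genes, Pax6 averaged 13.8 CPM over the 32 zQ175 mice of 6[4]10 and 12.8 CPM over the 32 WT mice and was not called between untreated zQ175 and WT mice in any regimen. Pax1, Pax3, Pax4, Pax5, Pax7, Pax8 and Pax9 averaged at most 0.231 CPM over the 32 mice of a genotype and regimen. That value is the mean of Pax1 in zQ175 mice of 6[4]10, against a mean of 0.0536 CPM in WT. The median of these zQ175 mice was 0.151 CPM, and the highest mouse had 2.67 CPM. Pax1 was also higher in zQ175 than in WT mice of 2.6[8]10 (0.103 and 0.0297 CPM) and 2[4]6 (0.0920 and 0.0456 CPM). Foxd3 and Foxd4 averaged at most 0.019 CPM on that count, with 0.239 CPM as the highest value of a mouse. Twist2, the near relative of Twist1, averaged 0.86 CPM over the 32 zQ175 mice of 6[4]10 and 1.14 CPM over the 32 WT mice. Tcf15, a bHLH factor of paraxial mesoderm and of brain endothelium listed with the Twist-type factors, was called lower in 2.6[8]10, at 1.16 ± 0.336 CPM in zQ175 and 1.96 ± 0.479 CPM in WT. Tcf24 of the same list averaged 0.621 CPM over the 32 zQ175 mice and 0.434 CPM over the 32 WT mice of 6[4]10. In 2.6[8]10 it averaged 0.652 and 0.440 CPM. Of 21 other forkhead genes tested in 2.6[8]10, Foxc1, a gene of meningeal and vascular mesenchyme, was the 1 called between untreated zQ175 and WT mice (0.47), and none of 22 or 21 was called in 2[4]6 or 6[4]10. Over all genes 4.15% were called in 2[4]6, 11.5% in 6[4]10 and 11.1% in 2.6[8]10.

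Partners and regulators of the 4 factors were counted for untreated zQ175 against WT mice, where 4.15%, 11.5% and 11.1% of all genes were called in 2[4]6, 6[4]10 and 2.6[8]10. Of genes that act with PAX2 in the midbrain-hindbrain and kidney programmes, 1 of 11 tested was called in 6[4]10 and none in the other regimens. It was En1, a homeodomain factor of the midbrain-hindbrain boundary, at 0.375 CPM in zQ175 and 0.0292 CPM in WT. In untreated mice of 2.6[8]10 En1 averaged 0.433 CPM in zQ175 and 0.0165 CPM in WT, so the missing call does not show like levels there. En1 was under 0.1 CPM in 136 of 192 libraries. It could pass the filter on low counts only through zQ175 libraries, so nothing is read from its call. Of the genes that act with TWIST1, 1 of 16, 2 of 15 and 1 of 14 were called in 2[4]6, 6[4]10 and 2.6[8]10, all lower in zQ175, shares near those over all genes. These were Zeb2, a repressor of epithelial genes (-0.20 and -0.25), and Fgfr3, a fibroblast growth factor receptor (-0.21 and -0.14). Among the E proteins and Id proteins Tcf12 was called higher by 0.14. Between untreated zQ175 and WT mice the median log2 difference over all genes was near 0 in every regimen.

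Polycomb subunits moved by small amounts in untreated zQ175 against WT mice. Of 21 PRC1 genes 2 were called higher in 2[4]6, 4 in 6[4]10 and 5 in 2.6[8]10, with 2 called lower in 2.6[8]10. Cbx8, a reader of methylated histone H3 in PRC1, was higher by 0.36, 0.70 and 0.69 in 2[4]6, 6[4]10 and 2.6[8]10. Ring1, an H2A ubiquitin ligase, was lower by 0.25 and Phc3 by 0.14 in 2.6[8]10. Of 14 PRC2 genes none was higher and 1, 2 and 1 were lower, with Epop, an accessory subunit, at -0.37, -0.55 and -0.58. The list was drawn up with earlier results of these data known, and its counts are to be read beside 4.15%, 11.5% and 11.1% of all genes called.

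Of 84 other developmental transcription factors of the same kind, 32 were tested in 2[4]6 and 6[4]10 and 24 in 2.6[8]10. In untreated zQ175 against WT mice 3, 11 and 8 were called higher and none lower, where 1.86%, 5.35% and 4.66% of all genes were called higher. Factors near 0 in WT could pass the filter on low counts only through zQ175 libraries, so nothing is read from this direction. Skor1 was higher by 6.27 in 6[4]10, and Onecut1, a factor of motor neurons and horizontal cells, by 1.06 and Neurog2, a proneural factor, by 0.89 in 2[4]6. Between NTC and untreated zQ175 mice of 2.6[8]10, 3 of 24 were called, all lower with NTC, where 1.02% of all genes were called, Tbx5 by 2.21, Tbx3 by 0.53 and Tbx2 by 0.49, with a list median of -0.37. Between HTT-634.486 and NTC mice, where 2.04% of all genes were called, 2 were called lower, Skor1 by 1.54 (3.36 against 9.79 CPM) and Hoxa2 by 2.01, and between HTT-10150 and NTC mice, where 0.871% were called, 1, Skor1 by 1.28 (3.99 against 9.79 CPM). Skor1 was thus called lower than NTC with either siRNA in that regimen, while Pax2 was called lower with HTT-634.486 and not with HTT-10150.

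Markers of other cells were counted because the levels of the 4 genes were low. Over all zQ175 mice collected at 10 months the medians were 2.65 CPM of Foxd1 and 2.45 CPM of Twist1. Over all genes 1.86%, 5.35% and 4.66% were called higher and 2.29%, 6.19% and 6.45% lower in untreated zQ175 than in WT mice of 2[4]6, 6[4]10 and 2.6[8]10. Fibroblast markers were read in all 192 libraries, with 15 of 16 at 0.1 CPM or more throughout. Between untreated zQ175 and WT mice 1 of 16 was called lower in 6[4]10 and 1, Foxc1, higher in 2.6[8]10. No pericyte and no choroid plexus marker of 10 each was called in any regimen, and Ttr, the defining choroid plexus transcript, ran from 2.91 to 10771 CPM over the libraries. Of 10 cerebellum and hindbrain markers En1, Gabra6 and Barhl1 were under 0.1 CPM in most libraries (136, 140 and 125 of 192). En2 and Car8 were at 0.1 CPM or more in every library, with medians of 2.09 and 3.53 CPM. Cbln3, with a median of 0.487 CPM, was under 0.1 CPM in 1 library. Of 14 markers of hippocampal neurons 5, 6 and 6 were called lower and 1, 1 and 0 higher in 2[4]6, 6[4]10 and 2.6[8]10, and of 10 interneuron markers 5, 3 and 1 were called lower. Their part in the levels of the 4 genes was not tested.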

How the data were processed

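Hippocampal RNA of 192 mice was sequenced after polyA selection of RNA extracted with a Qiagen RNeasy kit, per the labels' protocols. The deposited table holds expected counts (estimated reads per gene) that the authors made with RSEM on GRCm38, per the submitters' processing notes; all values are whole numbers, so nothing was rounded. The sources used here do not give the aligner, versions or annotation. Of 41135 features, 41128 are Ensembl genes, 40254 of them named by GENCODE vM21; the 7 other features hold 6.85e-06% of counts and were left out.

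Levels are CPM with TMM factors over all libraries; likeness used log2 CPM with a prior count of 2. Each regimen was fitted alone (64 libraries, 8 groups and sex) by edgeR 4.0.16 (quasi-likelihood test, R 4.3.3) after filterByExpr, on 16575 genes in 2[4]6, 16374 in 6[4]10 and 15852 in 2.6[8]10; comparisons between regimens used 16627 genes of all 192 libraries. A gene was called at a Benjamini-Hochberg adjusted p under 0.05, and adjusted p-values come from edgeR except where limma or DESeq2 is named. Errors beside log2 values are SE and beside means SD. Exact permutation tests of 8 against 8 mice were two-sided over all 12870 splits (smallest p 0.000155). Alternatives used limma 3.58.1 (voom), DESeq2 1.42.0, other scaling, no filter, other covariates and left-out libraries. The fits were tested on simulated data.

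The members and all gene lists were chosen with earlier results of these data known. Named beside the members were the 3 genes most like each over the 24 groups, Htt, up to 4 called genes of smallest adjusted p in a list, family members, and called neighbours within 250 kb. Promoters come from RefSeq (GRCm38.p6), in which all 4 members matched.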

Additional observations from a re-analysis of the deposited data

Results flagged for a closer look

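Dixon's 95% limit is passed in about 5% of sets where values are independent and normal. CPM of few reads need not be normal, and the 4 genes of a mouse share 1 library, so no excess is read here. In 22 of 96 group-and-gene sets of 8 mice, 1 mouse stood apart from the other 7 by more than that limit. They were 14 of 48 sets of zQ175 mice and 8 of 48 sets of WT mice. Of these, 8 are the zQ175 HTT-10150 libraries described in the report: female 4 of 2[4]6 at 18.4 CPM of Pax2, 8.35 of Foxd1, 6.11 of Foxd2 and 6.51 of Twist1, and male 2 of 6[4]10 at 24.1, 17.4, 15.9 and 19.6 CPM of the same genes.

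Among the other zQ175 mice, female 4 of the 2.6[8]10 NTC group was the highest in Pax2 at 10.8 CPM (next 5.63) and in Twist1 at 5.12 CPM (next 2.88). Female 4 of 2.6[8]10 HTT-634.486 had 6.67 CPM of Pax2 (next 3.34), and female 4 of 2.6[8]10 HTT-10150 the lowest Twist1 at 1.17 CPM (next 1.87). In 2[4]6, Foxd2 was at 0.659 CPM in female 4 of the NTC group and at 0.536 CPM in female 1 of the HTT-634.486 group.

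Among WT mice, Foxd1 was at 2.35 CPM in male 3 of the untreated and at 2.25 CPM in male 3 of the NTC group of 6[4]10. Foxd2 was at 0.552 CPM in female 4 of 2.6[8]10 HTT-10150, at 0.832 CPM in female 2 of 2[4]6 HTT-634.486 and at 0.539 CPM in male 1 of 6[4]10 untreated mice. Twist1 was at 2.11 CPM in female 4 of 2[4]6 HTT-634.486, at 2.13 CPM in male 4 of 6[4]10 NTC, and lowest at 0.734 CPM in female 1 of 2[4]6 NTC mice.

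An effect in zQ175 mice differed between 2.6[8]10 and 6[4]10 for Twist1 with HTT-10150 against NTC (-1.525; edgeR adjusted p = 0.0408) and for Foxd1 with HTT-10150 against untreated mice (-1.615; edgeR adjusted p = 0.0399). Without the zQ175 libraries that stand apart these were -0.71 and -0.86 (edgeR adjusted p = 1 each).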

How the results depend on the processing

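In 2.6[8]10 zQ175 mice, Pax2 and Foxd2 stayed called for HTT-634.486 against untreated mice in every alternative run. Of 1117 results with a test or direction, 984 kept their direction and their side of the threshold, 61 fell short of it, 31 newly passed it and 41 changed sign. All values below are log2 differences, first group over second, in zQ175 mice, and where a call or sign changed the cause was not tested. DESeq2 gave no adjusted p for 17 results, which are left out. Leaving out the libraries that stand apart or the WT library high in striatum markers, and the differences of treatment effects between regimens, were chosen after seeing the data.

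With limma-voom, NTC against untreated in 6[4]10 was 0.077 for Foxd2, NTC against untreated in 2.6[8]10 was -0.68 for Foxd1 and HTT-10150 against NTC in 2[4]6 was 0.27 for Pax2 and -0.41 for Foxd2. HTT-10150 against HTT-634.486 in 2[4]6 was 0.54 for Pax2 and 0.048 for Foxd2, HTT-10150 against HTT-634.486 in 6[4]10 was 0.84 for Twist1 and HTT-10150 against HTT-634.486 in 2.6[8]10 was -0.0013 for Foxd2. Males against females in 2.6[8]10 was 0.0012 for Twist1, HTT-634.486 against untreated in 2.6[8]10 was -0.67 for Twist1 and 2.6[8]10 against 6[4]10 NTC mice was -0.68 for Pax2 and -0.85 for Foxd2. 2.6[8]10 against 6[4]10 HTT-10150 mice was -0.84 for Pax2. With a replicate block, NTC against untreated in 2[4]6 was 0.0019 for Twist1, NTC against untreated in 2.6[8]10 was -0.69 for Foxd1 and HTT-10150 against NTC in 2[4]6 was 0.99 for Pax2. HTT-10150 against HTT-634.486 in 2[4]6 was 1.18 for Foxd2, HTT-10150 against HTT-634.486 in 6[4]10 was 1.09 for Twist1 and HTT-634.486 against untreated in 2.6[8]10 was -0.62 for Twist1. 2.6[8]10 against 6[4]10 HTT-10150 mice was -0.92 for Pax2. With the number in the library name as a block, NTC against untreated in 2[4]6 was 0.11 for Pax2, 0.080 for Foxd1 and 0.12 for Twist1, HTT-10150 against NTC in 2[4]6 was 0.61 for Pax2 and HTT-10150 against HTT-634.486 in 2[4]6 was 1.02 for Pax2 and 0.98 for Foxd2. HTT-10150 against HTT-634.486 in 6[4]10 was 0.91 for Pax2 and 0.84 for Twist1 and HTT-634.486 against untreated in 2.6[8]10 was -0.70 for Twist1. With only the groups compared in the fit, NTC against untreated in 2.6[8]10 was -0.69 for Foxd1, HTT-10150 against NTC in 2[4]6 was 1.42 for Pax2 and HTT-634.486 against NTC in 2.6[8]10 was -0.83 for Pax2. HTT-10150 against HTT-634.486 in 2[4]6 was 1.78 for Pax2, HTT-10150 against HTT-634.486 in 6[4]10 was 0.98 for Pax2 and 1.12 for Twist1 and HTT-634.486 against untreated in 2.6[8]10 was -0.61 for Twist1. With DESeq2, NTC against untreated in 2.6[8]10 was -0.70 for Foxd1 and HTT-634.486 against untreated in 2.6[8]10 was -0.61 for Twist1. With all 192 libraries in 1 fit, NTC against untreated in 2.6[8]10 was -1.04 for Foxd2, HTT-10150 against NTC in 2[4]6 was 1.33 for Foxd2 and HTT-10150 against NTC in 6[4]10 was 1.06 for Twist1. HTT-634.486 against NTC in 2.6[8]10 was -0.84 for Pax2, HTT-10150 against HTT-634.486 in 6[4]10 was 1.01 for Pax2 and HTT-10150 against HTT-634.486 in 2.6[8]10 was 1.15 for Pax2. HTT-634.486 against untreated in 2.6[8]10 was -0.82 for Foxd1, HTT-10150 against untreated in 2.6[8]10 was -0.85 for Pax2 and HTT-634.486 against untreated in 6[4]10 was -0.83 for Pax2. With untreated mice in place of NTC, HTT-10150 in 2[4]6 was 1.37 for Pax2, HTT-10150 in 2.6[8]10 was -0.85 for Pax2, -1.10 for Foxd1 and -1.40 for Foxd2 and HTT-634.486 in 6[4]10 was -0.84 for Pax2 and -0.25 for Foxd1. HTT-634.486 in 2.6[8]10 was -0.79 for Foxd1 and -1.53 for Foxd2. Without the library that stands apart, HTT-10150 against NTC in 2[4]6 was -0.30 for Pax2, -0.76 for Foxd2 and -0.22 for Twist1, HTT-10150 against HTT-634.486 in 2[4]6 was -0.011 for Pax2, -0.15 for Foxd1, -0.37 for Foxd2 and -0.030 for Twist1 and HTT-10150 against HTT-634.486 in 6[4]10 was 0.72 for Pax2 and 0.44 for Twist1. Males against females in 2[4]6 was 0.082 for Twist1 and males against females in 6[4]10 was -0.083 for Twist1. Without both libraries that stand apart, 2.6[8]10 against 6[4]10 NTC mice was -0.65 for Pax2 and -0.83 for Foxd2 and 2.6[8]10 against 6[4]10 HTT-10150 mice was -0.65 for Foxd1 and -0.44 for Twist1. With no filter on low counts, 2.6[8]10 against 6[4]10 HTT-634.486 mice was -1.04 for Pax2. Without the WT library high in striatum markers, NTC against untreated in 2.6[8]10 was -0.69 for Foxd1, HTT-634.486 against NTC in 2.6[8]10 was -0.58 for Twist1 and males against females in 2.6[8]10 was -0.50 for Pax2. HTT-634.486 against untreated in 2.6[8]10 was -0.60 for Twist1.

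The main fits do not pair mice by replicate label. Libraries that share a label correlated at a mean r of 0.00339 in 2[4]6, 0.0292 in 6[4]10 and 0.0308 in 2.6[8]10 (lowest -0.522, -0.366 and -0.396). For other labels of the same sex the mean r was -0.000777, -0.00894 and -0.00986. Among the 4 labels of their sex, 18, 29 and 28 of 64 libraries correlated best with their own. Libraries of a label were thus slightly more alike in the 10-month regimens, and the main fits leave this out. The replicate block values above take it up. Leaving out each replicate number in turn removes 2 mice per group. The calls of Pax2 and Foxd2 between NTC and untreated mice of 2.6[8]10 were lost without number 3 and not without 1, 2 or 4. NTC against untreated in 2[4]6 gave -0.16 to 0.16 for Twist1, NTC against untreated in 6[4]10 gave -0.21 to 0.067 for Foxd2 and NTC against untreated in 2.6[8]10 gave -1.38 to -1.03 for Pax2, -1.24 to -0.93 for Foxd2 and -0.18 to 0.060 for Twist1. HTT-10150 against NTC in 2[4]6 gave -0.39 to 2.20 for Pax2, -0.47 to 1.56 for Foxd2 and -0.27 to 0.59 for Twist1, HTT-10150 against NTC in 6[4]10 gave -0.0096 to 0.93 for Foxd1 and 0.080 to 1.52 for Twist1 and HTT-634.486 against NTC in 2[4]6 gave -0.71 to 0.063 for Pax2. HTT-634.486 against NTC in 6[4]10 gave -0.017 to 0.14 for Foxd1, -0.21 to 0.070 for Foxd2 and -0.38 to 0.12 for Twist1, HTT-634.486 against NTC in 2.6[8]10 gave -0.91 to -0.71 for Pax2 and HTT-10150 against HTT-634.486 in 2[4]6 gave 0.014 to 2.55 for Pax2, -0.20 to 0.79 for Foxd1 and -0.40 to 2.34 for Foxd2. HTT-10150 against HTT-634.486 in 6[4]10 gave 0.66 to 1.14 for Pax2, -0.074 to 0.91 for Foxd1 and 0.46 to 1.40 for Twist1, HTT-10150 against HTT-634.486 in 2.6[8]10 gave 1.06 to 1.45 for Pax2 and -0.035 to 0.45 for Twist1 and HTT-634.486 against untreated in 2.6[8]10 gave -0.87 to -0.71 for Foxd1 and -0.82 to -0.47 for Twist1. HTT-10150 against untreated in 2.6[8]10 gave -0.86 to -0.84 for Pax2, HTT-634.486 against untreated in 6[4]10 gave -0.89 to -0.78 for Pax2 and 2.6[8]10 against 6[4]10 untreated mice gave -0.037 to 0.084 for Twist1. 2.6[8]10 against 6[4]10 NTC mice gave -0.95 to -0.52 for Pax2 and -1.12 to -0.71 for Foxd2, 2.6[8]10 against 6[4]10 HTT-10150 mice gave -1.05 to -0.48 for Pax2, -1.59 to -0.77 for Foxd1, -1.79 to -1.09 for Foxd2 and -1.57 to -0.41 for Twist1 and 2.6[8]10 against 6[4]10 HTT-634.486 mice gave -1.41 to -0.87 for Pax2, -1.37 to -1.14 for Foxd2 and -0.37 to 0.088 for Twist1.

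The number of genes called also moved. Between NTC and untreated mice of 2.6[8]10 63 were higher and 98 lower, and the total was 33 to 318 over the alternatives. For HTT-10150 against NTC in 2.6[8]10 it was 138 (38 to 337), for HTT-634.486 against NTC 323 (71 to 693) and for HTT-10150 against HTT-634.486 33 (8 to 60), each highest without the WT library high in striatum markers. In 6[4]10 these counts were 11 (0 to 33), 157 (12 to 344) and 19 (2 to 35), and in 2[4]6 591 (20 to 895), 5 (0 to 16) and 1934 (at most 2344, and 130 when only the compared groups were fitted). NTC against untreated gave 5 (0 to 495) in 2[4]6 and 0 (0 to 2) in 6[4]10. Untreated zQ175 against WT gave 688 (320 to 822), 1890 (386 to 2039) and 1762 (348 to 2602) in 2[4]6, 6[4]10 and 2.6[8]10. Depth limits Foxd2 in WT, with a median of 3 reads per library.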
